A study of Mus musculus with 18 samples.

Results

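The circadian clock of mouse liver was described here through 30 genes, chosen by name from a list of clock components and clock outputs and matched to the count table by Ensembl identifier. They were 30 of the 37315 genes in the table, and all 30 passed the filter on low counts that left 16213 genes to test. Polyadenylated RNA came from 18 livers of C57BL/6J mice in 6 groups of 3. By the labels each group held both sexes, unevenly split. At 2 weeks most PBS mice were male and most asparaginase mice female, and at 8 and 16 weeks the reverse held. Labelled sex is therefore partly confounded with treatment at each age. The treated mice of 2, 8 and 16 weeks received asparaginase, an enzyme drug used against leukaemia that breaks down circulating asparagine, at 3 IU per g of body weight by daily intraperitoneal injection. The PBS mice of 2, 8 and 16 weeks received an equal volume of phosphate buffered saline. Mice of 2 and 16 weeks had 7 injections and mice of 8 weeks had 8. By the labels the injections were given at about 8 AM and the mice were killed 7.5 h later, so that all groups were sampled at 1 nominal time in the afternoon. The hour at which each mouse was killed, the lighting schedule and food intake were not known for this comparison. At a single time of day, a shift of clock phase, a change in the level or amplitude of a rhythm and a difference in the actual hour of sampling cannot be told apart.

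The mammalian clock is a delayed negative feedback loop. ARNTL (also called BMAL1) pairs with CLOCK or NPAS2 and activates genes that carry E-boxes, among them the Period and Cryptochrome genes, whose proteins then repress the pair. A second loop runs through the nuclear receptors NR1D1 and NR1D2 (REV-ERB alpha and beta), which repress Arntl, and RORA, which activates it. In mouse liver, Arntl and Npas2 transcripts peak around the end of the night and the start of the day, whereas Dbp, Nr1d1 and the Period genes peak between midday and early night. The PAR bZIP factors DBP, TEF and HLF carry the rhythm through D-boxes to genes of detoxification and metabolism, and NFIL3 opposes them at the same sites.

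Promoter sequences from RefSeq on GRCm38.p6 were found for 24 of the 30 members. They are shown because the E-box and the D-box are the elements through which the loop is known to act. The windows hold up to 250 bases upstream of the RefSeq start site, 5′ to 3′ on the gene's strand, with bases of annotated exons left out. Capitals mark E-boxes (CACGTG) and D-boxes (TTANGTAA), both searched on both strands.
Ciart (chr3:95882252-95882478, minus strand): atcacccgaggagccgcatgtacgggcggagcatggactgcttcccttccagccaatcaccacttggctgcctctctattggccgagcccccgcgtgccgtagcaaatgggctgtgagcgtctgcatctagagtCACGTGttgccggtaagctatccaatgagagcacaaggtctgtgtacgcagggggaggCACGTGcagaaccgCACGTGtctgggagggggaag
Per1 (chr11:69098699-69098947, plus strand): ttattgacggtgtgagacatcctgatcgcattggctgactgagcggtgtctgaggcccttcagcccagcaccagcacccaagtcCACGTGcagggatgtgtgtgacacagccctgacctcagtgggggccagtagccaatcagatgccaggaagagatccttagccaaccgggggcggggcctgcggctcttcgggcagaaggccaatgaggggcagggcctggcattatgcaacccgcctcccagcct
Bhlhe41 (chr6:145865559-145865670, minus strand): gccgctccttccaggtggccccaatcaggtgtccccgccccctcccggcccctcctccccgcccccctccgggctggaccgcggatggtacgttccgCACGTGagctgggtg
Cry1 (chr10:85185065-85185304, minus strand): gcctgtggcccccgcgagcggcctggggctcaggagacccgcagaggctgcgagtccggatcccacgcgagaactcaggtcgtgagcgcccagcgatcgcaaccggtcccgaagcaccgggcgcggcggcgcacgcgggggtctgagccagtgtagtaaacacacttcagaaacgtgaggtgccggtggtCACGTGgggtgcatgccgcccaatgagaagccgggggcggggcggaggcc
Per3 (chr4:151044666-151044915, minus strand): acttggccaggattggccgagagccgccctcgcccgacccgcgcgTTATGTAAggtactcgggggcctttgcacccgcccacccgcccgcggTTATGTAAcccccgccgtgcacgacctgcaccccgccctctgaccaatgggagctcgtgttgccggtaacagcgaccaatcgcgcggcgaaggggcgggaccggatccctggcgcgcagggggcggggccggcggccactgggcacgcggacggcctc
Arntl (chr7:113207215-113207464, plus strand): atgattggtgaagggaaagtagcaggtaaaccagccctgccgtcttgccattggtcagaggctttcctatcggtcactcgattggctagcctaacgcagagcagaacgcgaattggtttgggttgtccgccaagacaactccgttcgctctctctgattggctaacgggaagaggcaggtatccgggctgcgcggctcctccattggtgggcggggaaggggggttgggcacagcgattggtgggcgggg

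The E-box letters stood in the 250-base windows of 5 of 24 members, against 6.05% of 27025 promoters of the same length. Ciart held 3 of them, with first bases at -116, -58 and -44 from the start site, Per1 held 1 at -166, Bhlhe41 1 at -153, Cry1 1 at -60 and Tef 1 at -127, the last within an annotated exon. The D-box letters stood in 2 of 24 windows, with 2 copies in Per3, at -205 and -158, and 1 in Timeless at -157, against 2.11% of all promoters. Bhlhe41 and Cry1 are printed because they held a match, and Arntl is printed as the activator itself, with no match in its window. A consensus of the ROR response element was found in 0 of 24 windows and in 0.514% of all promoters. The cAMP response element TGACGTCA was found in Hlf, at -9, and in 1.62% of all promoters. The CEBP-ATF element TGATGNAA was found in 0 of 24 windows and in 3.53% of all promoters. A match describes letters in a window and does not show binding.

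Counts per library totalled between 24690871 and 46949361. Major urinary protein genes took 0.046 to 0.579% of counts at 2 weeks and 5.39 to 47.9% in adults. In 3 of the 6 libraries of 2 weeks (asparaginase replicate 3 and PBS replicates 1 and 2), Xist and Y-linked transcripts were present together, against the labelled sex. PBS replicate 1 of 2 weeks also stood apart in its clock genes, and summed transcripts of cholesterol synthesis were 2667 CPM in it (CPM, counts scaled to a common total on TMM-scaled library sizes) while the rest of that age held 114 to 369 CPM. Asns, asparagine synthetase, checked the treatment: it rose by 2.85 (SE 0.22) on the log2 scale at 2 weeks, by 1.80 (SE 0.24) at 8 weeks and by 4.27 (SE 0.26) at 16 weeks. The sum of 10 hepatocyte markers lay between 64220 and 112600 CPM in the 18 libraries. In bulk liver, fewer cells of a type and less RNA per cell cannot be told apart.

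Per kilobase of exon, the level of the members spanned a wide range. The most abundant transcripts were outputs: Por, which encodes the electron donor of microsomal cytochromes P450, averaged 98.4 CPM per kb over the 18 libraries, Alas1, the rate-limiting enzyme of haem synthesis, 67.1 CPM per kb, and the uridine phosphorylase Upp2 51.6 CPM per kb. Next came Bhlhe40, a repressor, and then Noct, Tef, Nr1d2 and Dbp, at 22.4 to 15.1 CPM per kb. The lowest were Arntl at 0.599, Bhlhe41 at 0.448 and Npas2 at 0.189 CPM per kb. Differences between libraries of one age were also uneven. Across the 6 libraries of 2 weeks the highest level was 26.0-fold the lowest for Dbp and 22.2-fold for Arntl, against 1.11-fold for Btrc, an F-box protein that marks PER proteins for degradation. Across the 12 adult libraries Ciart varied 14.9-fold, and the casein kinase Csnk1d, whose product phosphorylates PER proteins, 1.21-fold.

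**Figure D1:**
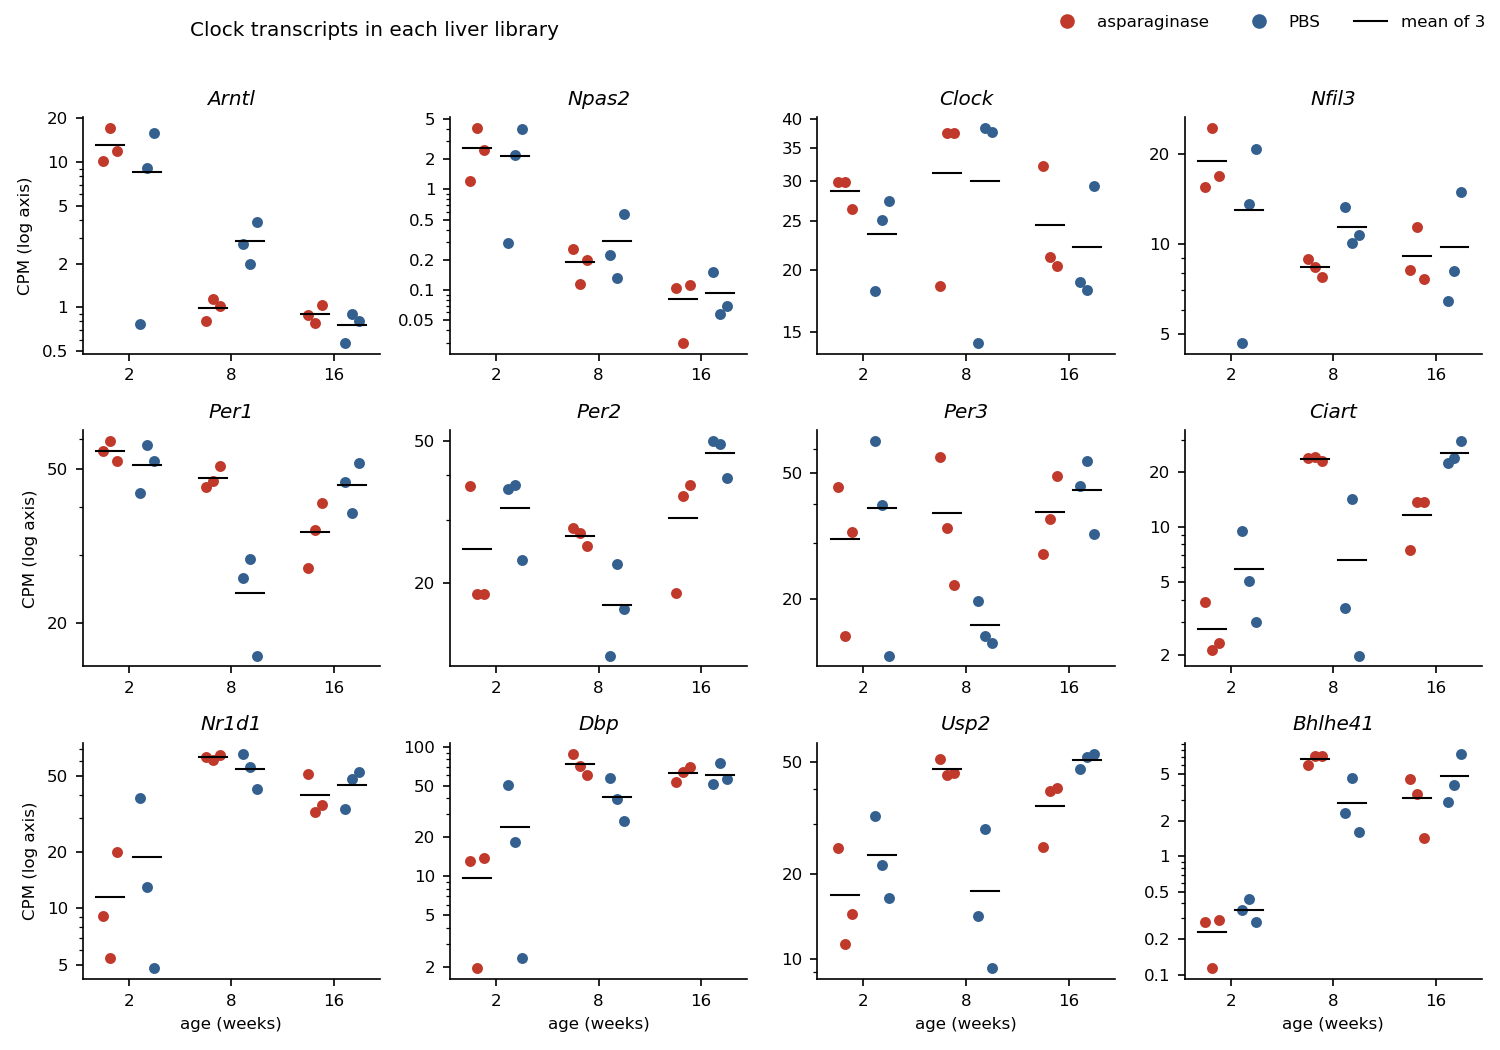
TMM-scaled CPM (log axis, a scale for each gene) of 12 clock genes in each of the 18 libraries by age, with asparaginase at the left of PBS at each age; each point is a library and each black line the mean of 3. At 8 weeks the 3 asparaginase libraries have 22.8 to 24.2 CPM of Ciart and the PBS libraries 1.97 to 14.1 CPM, and at 2 weeks a single PBS library has Arntl at 0.77 CPM.

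At 2 weeks no clock member differed with asparaginase at the threshold. The libraries of both groups overlapped widely for Arntl, Npas2, Dbp and Nr1d1. Por averaged 483 ± 96.5 CPM with asparaginase and 369 ± 50.3 CPM with PBS (SD, n = 3 each), and its log2 fold change was 0.52 (SE 0.14). Klf10, a Krüppel-like repressor that the clock drives in liver, averaged 35.8 ± 4.11 CPM with asparaginase and 23.0 ± 1.51 CPM with PBS. These were the 2 members whose asparaginase libraries were all higher, and no member had them all lower, against 8.09% and 8.64% of all genes tested. The called count was 0 of 30, by edgeR's quasi-likelihood test with Benjamini-Hochberg adjustment, where 0.432% of all genes were called. At an unadjusted p under 0.05 there were 2 members, Por higher and Timeless lower, against 12.6% of all genes. DESeq2 called 1 member, Por, among 452 genes in all. Por was also called by edgeR, among 265 genes, when PBS replicate 1 of 8 weeks was left out. The median log2 fold change of the 30 was -0.013, against -0.0075 over all genes.

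The activators showed the spread. Arntl stood at 10.1, 17.1 and 11.8 CPM in the asparaginase libraries, against 0.77, 9.09 and 15.8 CPM in the PBS libraries. Npas2, which can stand in for CLOCK, stood at 1.21, 4.06 and 2.46 CPM with asparaginase, against 0.296, 2.22 and 4.00 CPM with PBS. Both genes were lowest in PBS replicate 1, and the groups overlapped. Clock stood at 29.9, 29.9 and 26.4 CPM with asparaginase, against 18.2, 25.1 and 27.4 CPM with PBS. Nfil3, the repressor at D-boxes, stood at 15.5, 24.5 and 16.9 CPM with asparaginase, against 4.65, 13.7 and 20.8 CPM with PBS. These too were lowest in PBS replicate 1.

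Dbp, Nr1d1 and Per3 were highest in that same library, while Per1 was at its lowest there. Dbp stood at 13.0, 1.95 and 13.9 CPM with asparaginase, against 50.6, 18.5 and 2.33 CPM with PBS. Nr1d1 stood at 9.09, 5.47 and 19.8 CPM with asparaginase, against 38.4, 13.0 and 4.83 CPM with PBS. Per3, the least essential of the Period repressors, stood at 45.3, 15.3 and 32.5 CPM with asparaginase, against 63.5, 39.7 and 13.2 CPM with PBS. Asparaginase replicate 2 and PBS replicate 3 were the low libraries of their groups for all 3 genes and the high ones for Arntl. The fitted log2 fold change of Dbp was 0.05 (SE 0.88), and that of Arntl was 0.44 (SE 0.56). Neither sign was stable: Dbp was at -1.31 with no sex term and between -1.44 and 1.76 when 1 library was left out. Arntl was at -0.23 without the 3 libraries that held transcripts of both sexes, at -0.023 without PBS replicate 1 and at -0.13 without asparaginase replicate 1.

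The remaining 2-week values of the named repressors lay closer together. Per1 stood at 55.8, 59.3 and 52.5 CPM with asparaginase, against 43.5, 57.9 and 52.6 CPM with PBS. Per2 stood at 37.3, 18.6 and 18.7 CPM with asparaginase, against 36.6, 37.6 and 23.2 CPM with PBS. Ciart, a repressor of the CLOCK and ARNTL pair also called CHRONO, stood at 3.86, 2.12 and 2.30 CPM with asparaginase, against 9.54, 5.07 and 3.02 CPM with PBS. The groups overlapped for each of these. Timeless, a replication fork protein whose clock role in mammals is debated, averaged 7.20 ± 0.716 CPM with asparaginase and 9.55 ± 2.67 CPM with PBS, giving a log2 fold change of -0.51 (SE 0.19, adjusted p = 0.271). Cell cycle transcripts moved beside it: 15 of 16 listed genes were lower at an unadjusted p under 0.05, their sum was 112 to 198 CPM with asparaginase and 237 to 293 CPM with PBS, and its part in the Timeless value was not tested.

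At 8 weeks, Per-phase repressors and outputs were higher with asparaginase and Arntl was lower, but no member passed the threshold. Ciart, the 3 Period genes, the E-box repressor Bhlhe41 (also called DEC2), the deubiquitinase Usp2 and the cell cycle kinase Wee1 were each higher in all 3 asparaginase libraries than in any PBS library. The adjusted p of these genes, except Per2, lay between 0.0583 and 0.0763. The libraries did not overlap for 19 of the 30 members: 16 were higher with asparaginase, 53.3% of the members against 7.29% of all genes tested, and 3 were lower, 10.0% against 8.57%. The called count was 0 of 30, where 0.364% of all genes were called. At an unadjusted p under 0.05 there were 17 higher and 1 lower, 60.0% of the members against 18.4% of all genes. The median log2 fold change of the 30 was 0.46, against 0.0064 over all genes.

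The Period genes differed in the size of the change and in the spread of the libraries. Per1 stood at 45.0, 46.6 and 51.0 CPM with asparaginase, against 26.1, 29.2 and 16.4 CPM with PBS, giving a log2 fold change of 0.91 (SE 0.20, 95% interval 0.48 to 1.34, edgeR adjusted p = 0.0589). Every asparaginase library lay above every PBS library. Per2 stood at 28.4, 27.7 and 25.4 CPM with asparaginase, against 12.6, 22.6 and 16.9 CPM with PBS, giving a log2 fold change of 0.59 (SE 0.21, adjusted p = 0.174). Per3 stood at 56.4, 33.5 and 22.1 CPM with asparaginase, against 19.7, 15.2 and 14.5 CPM with PBS, giving a log2 fold change of 1.30 (SE 0.32, adjusted p = 0.0719). For Per3 the asparaginase libraries were spread and the PBS libraries were close together, and the reverse held for Per2. Of the Cryptochromes, which bind the activator pair, Cry2 averaged 27.7 ± 1.73 CPM with asparaginase and 21.3 ± 3.02 CPM with PBS (adjusted p = 0.113), and Cry1 averaged 4.98 ± 0.177 CPM with asparaginase and 5.24 ± 1.29 CPM with PBS.

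The largest fold change of a member at 8 weeks was that of Ciart. It stood at 23.7, 24.2 and 22.8 CPM with asparaginase, against 3.60, 14.1 and 1.97 CPM with PBS, giving a log2 fold change of 1.87 (SE 0.43, adjusted p = 0.0647). The asparaginase libraries were nearly equal, and PBS replicate 2 lay closest to them. Bhlhe41 averaged 6.70 ± 0.628 CPM with asparaginase and 2.85 ± 1.56 CPM with PBS, giving a log2 fold change of 1.10 (SE 0.27, adjusted p = 0.0676). Its relative Bhlhe40 (DEC1) averaged 123 ± 18.6 CPM with asparaginase and 81.2 ± 9.60 CPM with PBS (log2 0.57, SE 0.22, adjusted p = 0.203). All 3 of these repressors were higher in every asparaginase library.

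Arntl ran the other way. It stood at 0.808, 1.14 and 1.02 CPM with asparaginase, against 2.74, 1.99 and 3.85 CPM with PBS, with no overlap. Its log2 fold change was -1.45 (SE 0.71, 95% interval -2.98 to 0.08, adjusted p = 0.298). Clock stood at 18.6, 37.5 and 37.5 CPM with asparaginase, against 14.3, 38.3 and 37.7 CPM with PBS, so that replicate 1 was low in both groups. Npas2 stood at 0.254, 0.114 and 0.198 CPM with asparaginase, against 0.223, 0.133 and 0.574 CPM with PBS, and rested on 4 to 23 counts a library. Nfil3 stood at 8.93, 8.35 and 7.77 CPM with asparaginase, against 13.4, 10.1 and 10.7 CPM with PBS, lower in every asparaginase library.

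The receptors and the PAR bZIP factors were higher in part. Nr1d2 averaged 113 ± 3.67 CPM with asparaginase and 70.1 ± 3.59 CPM with PBS (log2 0.68, SE 0.31, adjusted p = 0.266). Nr1d1 stood at 63.2, 60.5 and 65.0 CPM with asparaginase, against 65.7, 56.2 and 42.7 CPM with PBS, and overlapped. Dbp stood at 88.2, 70.4 and 60.1 CPM with asparaginase, against 57.3, 39.1 and 26.6 CPM with PBS, with no overlap but a wide error (log2 0.91, SE 0.66, adjusted p = 0.488). Tef averaged 179 ± 27.1 CPM with asparaginase and 114 ± 12.9 CPM with PBS (log2 0.66, SE 0.23, adjusted p = 0.163), and Hlf overlapped. Exons of Dbp and Nr1d1 overlap those of Sphk2 and Thra on the opposite strand by 539 and 263 bases, and whether the counting used strand is not given in the sources used here.

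Among outputs, Usp2 stood apart most. It averaged 47.1 ± 3.54 CPM with asparaginase and 17.5 ± 10.2 CPM with PBS, giving a log2 fold change of 1.38 (SE 0.29, adjusted p = 0.0583). Wee1, which delays entry into mitosis, averaged 7.00 ± 1.36 CPM with asparaginase and 3.18 ± 0.705 CPM with PBS, giving a log2 fold change of 1.15 (SE 0.29, adjusted p = 0.0763). Por averaged 434 ± 29.5 CPM with asparaginase and 280 ± 56.0 CPM with PBS, giving a log2 fold change of 0.65 (SE 0.14, adjusted p = 0.0593). Klf10 and Nampt, the NAD salvage enzyme, were also higher in every asparaginase library, at log2 1.00 (SE 0.39) and 0.46 (SE 0.19), with adjusted p of 0.204 and 0.217. Noct, Upp2 and Alas1 overlapped. Of the kinases and turnover genes, Btrc was lower in every asparaginase library, by 0.22 on average with an SE of 0.10 (log2, adjusted p = 0.257), and Csnk1d, Csnk1e and Timeless overlapped.

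The 8-week result lies near the threshold and depends on tool and library. DESeq2 called 8 members (Usp2, Por, Per1, Per3, Bhlhe41, Wee1, Ciart and Rora, all higher) among 659 genes in all. EdgeR called 7 among 445 genes without the low-count filter and 4 among 159 without PBS replicate 1 of 2 weeks. The main fit called 59 genes. Limma-voom, RLE size factors and other sex terms called 0 members. Of the 8-week libraries, leaving out asparaginase replicate 3 gave 3 calls among 398 genes. Leaving out PBS replicate 2 gave 2 among 114, and PBS replicate 1 gave 1 among 15. The log2 fold change of Ciart was 3.10 without PBS replicate 2, the only 8-week PBS library labelled male. It was 0.74 without asparaginase replicate 1, the only 8-week asparaginase library labelled female. Without asparaginase replicates 1 and 2, which held squamous transcripts, it was 0.68. With labelled sex as a term, the first of these fits compares labelled females and the later ones labelled males. Sex and squamous transcripts therefore cannot be told apart in them. Other members also moved when 1 library of any age was left out. The 8-week log2 fold change ranged from 0.65 to 2.12 for Usp2, 0.24 to 0.94 for Per2 and 0.12 to 0.81 for Nampt. The range was 0.43 to 1.59 for Klf10 and 0.18 to 0.55 for Cry2. It was narrower for Per1 (0.75 to 1.08), Por (0.56 to 0.78) and Nr1d2 (0.64 to 0.73). Summed squamous markers were 832, 437 and 11.9 CPM with asparaginase, against 7.88, 2.35 and 2.77 CPM with PBS, and 2 of the 11 tested, Evpl and Dsg1a, rose. Kupffer cell markers summed to 292, 241 and 233 CPM with asparaginase, against 576, 310 and 480 CPM with PBS, with 9 of 10 lower at an unadjusted p under 0.05 and 0 called. Their part in the clock values was not tested.

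**Figure D2:**
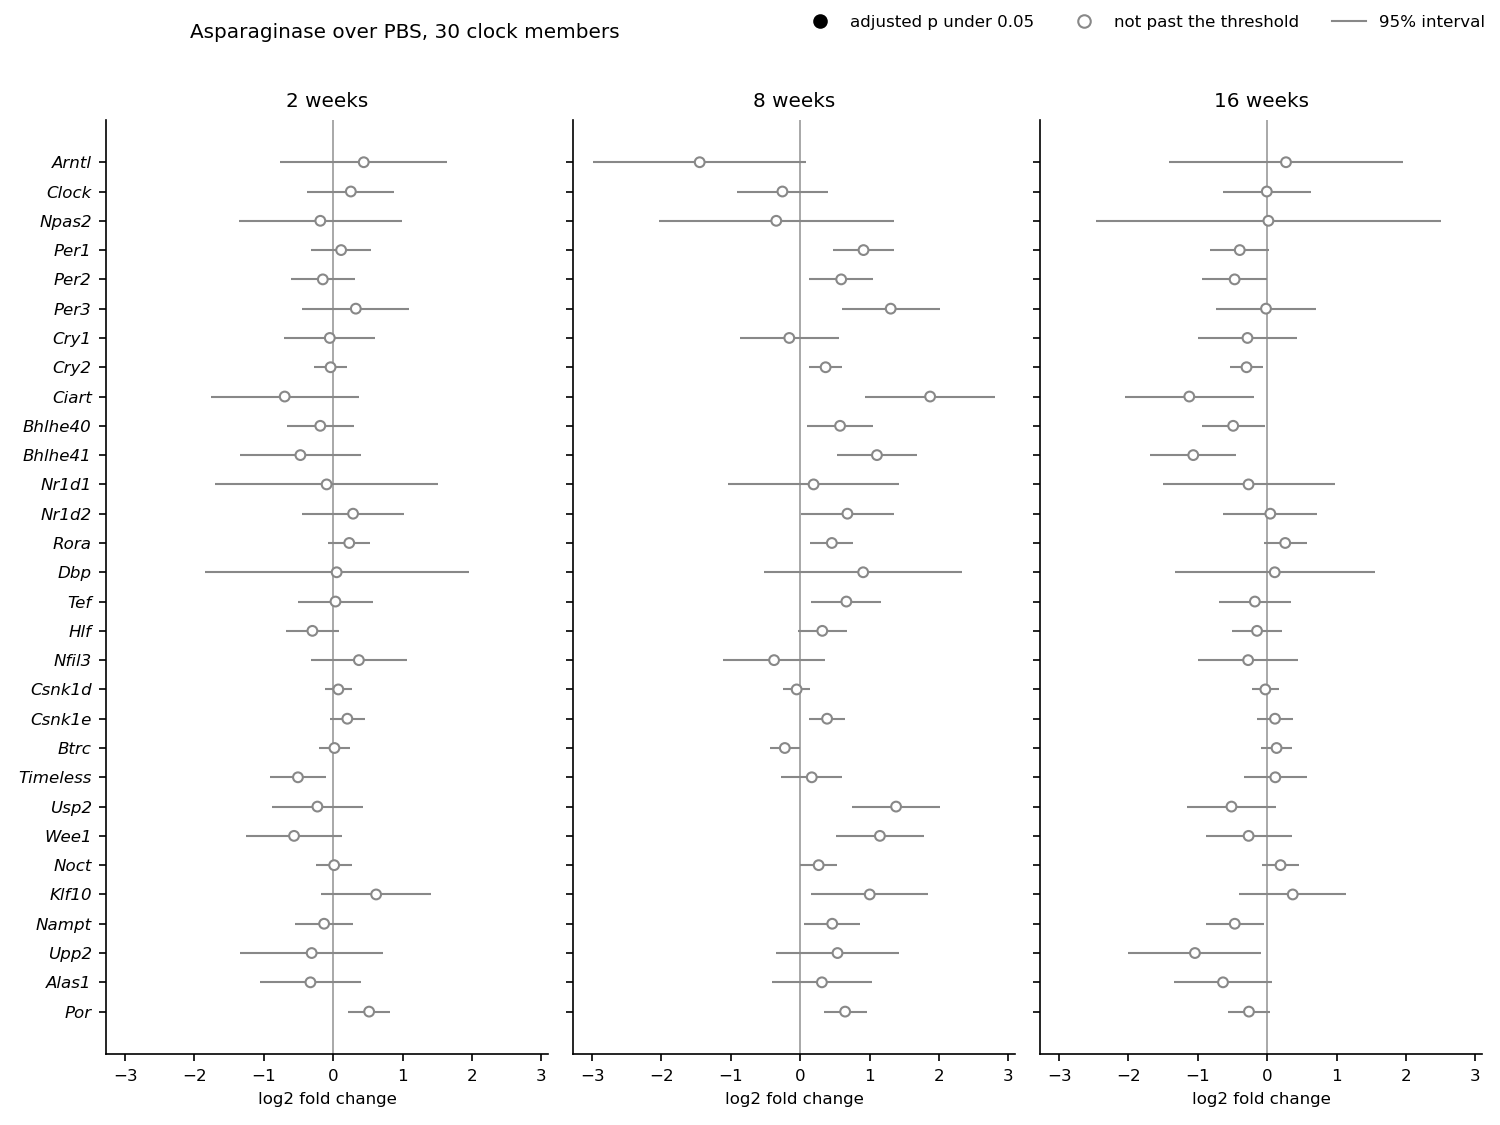
Log2 fold change of asparaginase over PBS for the 30 members at each age (x axis), with 95% intervals as lines; filled points would mark an adjusted p under 0.05 and open points the rest. All points are open, with most 8-week points at the right of 0 (23 of 30) and Ciart at 1.87 at 8 weeks against -1.12 at 16 weeks.

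At 16 weeks several repressors and outputs were lower with asparaginase, and no member passed the threshold. Ciart, Per2, Cry2, Cry1, Usp2, Nampt and Upp2 were lower in all 3 asparaginase libraries than in any PBS library, and Csnk1e, a casein kinase like Csnk1d, was higher. These were 7 and 1 of 30 members, 23.3% and 3.33%, against 9.63% and 10.1% of all genes tested. The called count was 0 of 30, where 0.234% of all genes were called. At an unadjusted p under 0.05 there were 0 higher and 7 lower, against 11.4% of all genes in either direction. DESeq2 called 1 member, Bhlhe41, as lower, among 322 genes in all. The median log2 fold change of the 30 was -0.22, against 0 over all genes.

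Ciart stood at 7.49, 13.7 and 13.6 CPM with asparaginase, against 22.4, 23.9 and 29.5 CPM with PBS, giving a log2 fold change of -1.12 (SE 0.43, adjusted p = 0.347). Per2 stood at 18.7, 35.1 and 37.6 CPM with asparaginase, against 49.9, 48.9 and 39.4 CPM with PBS, giving a log2 fold change of -0.47 (SE 0.21, adjusted p = 0.435). In both genes asparaginase replicate 1 was the lowest library. Per1 stood at 27.7, 34.7 and 40.8 CPM with asparaginase, against 46.3, 38.6 and 52.0 CPM with PBS, and the groups overlapped. Per3 stood at 27.7, 36.0 and 49.3 CPM with asparaginase, against 45.7, 54.9 and 32.0 CPM with PBS. It overlapped as well. Cry2 averaged 24.4 ± 1.38 CPM with asparaginase and 30.5 ± 0.700 CPM with PBS (log2 -0.30, SE 0.11, adjusted p = 0.333).

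Bhlhe41 had the smallest p of the members at this age, with a log2 fold change of -1.07 (SE 0.29, adjusted p = 0.187). It stood at 4.57, 3.37 and 1.45 CPM with asparaginase, against 2.91, 4.03 and 7.42 CPM with PBS, so that the libraries overlapped. The higher libraries were those labelled male, replicates 1 and 2 with asparaginase and replicate 3 with PBS, and the fit compares the groups at an even mix of the labelled sexes. Bhlhe40 averaged 101 ± 11.6 CPM with asparaginase and 135 ± 34.9 CPM with PBS (log2 -0.49, SE 0.21, adjusted p = 0.411). Usp2 averaged 34.8 ± 8.60 CPM with asparaginase and 50.8 ± 3.19 CPM with PBS (log2 -0.52, SE 0.30, adjusted p = 0.551). Upp2 averaged 288 ± 91.6 CPM with asparaginase and 637 ± 156 CPM with PBS (log2 -1.04, SE 0.44, adjusted p = 0.404). Nampt averaged 70.2 ± 2.55 CPM with asparaginase and 102 ± 30.6 CPM with PBS (log2 -0.47, SE 0.19, adjusted p = 0.393).

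The activators and the D-box factors gave no comparable difference at 16 weeks. Arntl stood at 0.879, 0.776 and 1.04 CPM with asparaginase, against 0.569, 0.905 and 0.805 CPM with PBS. Npas2 had 3, 1 and 3 counts with asparaginase, against 5, 2 and 2 counts with PBS, too few to show a difference at this depth. Clock stood at 32.2, 21.2 and 20.3 CPM with asparaginase, against 18.9, 18.2 and 29.4 CPM with PBS. The groups overlapped for all 3 activators. Dbp stood at 53.6, 63.7 and 69.8 CPM with asparaginase, against 51.5, 74.1 and 56.2 CPM with PBS. Nr1d1 stood at 51.5, 32.2 and 35.3 CPM with asparaginase, against 33.6, 48.2 and 52.5 CPM with PBS. Nfil3 stood at 8.19, 11.4 and 7.64 CPM with asparaginase, against 6.41, 8.09 and 14.9 CPM with PBS. These also overlapped. Skeletal muscle markers summed to 4.78, 18.0 and 3.11 CPM with asparaginase, against 133, 245 and 41.9 CPM with PBS, with 8 of 9 lower at an unadjusted p under 0.05, and their part in the 16-week clock values was not tested.

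Whether the response depended on age was tested on the difference of the effects. The joint test over 3 ages called 0 of 30 members and 0 of 16213 genes with edgeR. At an unadjusted p under 0.05 there were 11 members, against 9.43% of all genes. DESeq2 called 6 (Bhlhe41, Usp2, Por, Per1, Ciart and Wee1) among 155 genes in all. When PBS replicate 2 of 8 weeks was left out, edgeR called 1, Ciart, among 3 genes. Ciart had the largest contrast: its effect at 16 weeks was below its effect at 8 weeks by a log2 difference of -3.00 (SE 0.61, unadjusted p = 0.000292, adjusted p = 0.306). For Usp2 the same difference was -1.90 (SE 0.42, adjusted p = 0.315). No pairwise difference of effects passed the threshold for Ciart, Cry2, Nampt, Per2 or Usp2.

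A balance of phases was computed for each library, as the mean log2 CPM of 11 Per-phase members minus that of 5 Arntl-phase members. At 2 weeks it was 0.94, -0.75 and 0.55 with asparaginase, against 3.45, 1.00 and -0.52 with PBS. At 8 weeks it was 3.99, 3.73 and 3.56 with asparaginase, against 2.58, 2.85 and 1.59 with PBS. At 16 weeks it was 3.37, 3.76 and 3.62 with asparaginase, against 3.97, 4.09 and 3.78 with PBS. At 8 weeks the groups were apart, with asparaginase higher. At 16 weeks asparaginase was lower by 0.36 on average, but the closest libraries, 3.764 and 3.778, nearly met. On CPM of total counts the 16-week groups overlapped. They also overlapped when Dbp, Nr1d1 and Per3 were set against Arntl, Npas2 and Clock, at 4.51 to 4.97 with asparaginase and 4.78 to 5.35 with PBS. The 8-week groups stayed apart in both alternatives. With these 3 members against 3, however, their closest libraries nearly met, at 4.26 with asparaginase and 4.16 with PBS. At 2 weeks the groups overlapped, and PBS replicate 1 lay at the level of the adult livers. These are descriptions without a test, since the members of both sums were chosen by hand.

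**Figure D3:**
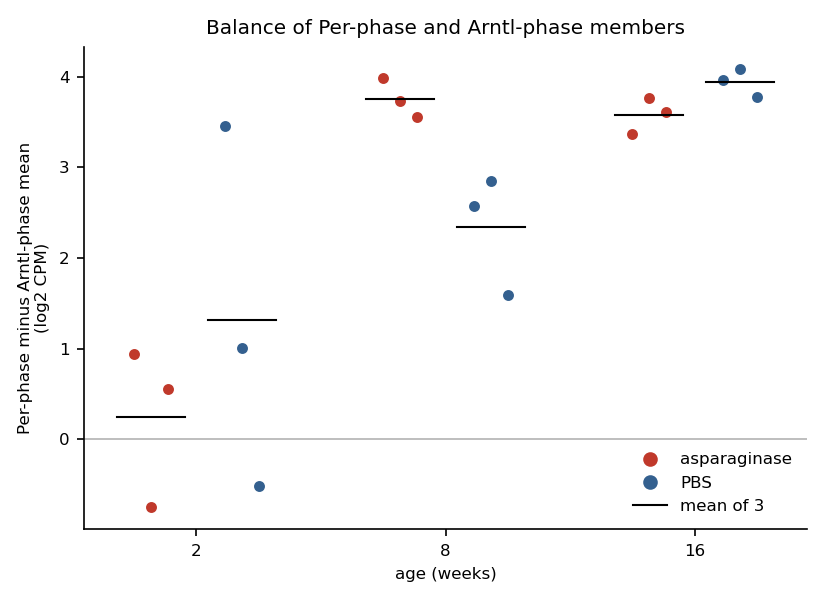
Balance of Per-phase over Arntl-phase members (y axis, log2 CPM) in each library by age (x axis), with asparaginase at the left of PBS; points are libraries and black lines means of 3. The 2-week libraries range from -0.75 to 3.45, and the 8-week asparaginase libraries, 3.56 to 3.99, all lie above the PBS libraries, 1.59 to 2.85.

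Averaged over the 3 ages, 1 member of the clock rose with asparaginase. This was Rora (chromosome 9, 68653786 to 69388246, GRCm38), the nuclear receptor that activates Arntl, with a log2 fold change of 0.31 (SE 0.08, edgeR adjusted p = 0.0451). Rora stood at 53.0, 46.0 and 56.2 CPM with asparaginase at 2 weeks, against 46.1, 45.8 and 42.9 CPM with PBS. At 8 weeks it stood at 52.9, 76.5 and 71.5 CPM with asparaginase, against 32.6, 50.9 and 49.2 CPM with PBS. At 16 weeks it stood at 73.6, 79.7 and 53.5 CPM with asparaginase, against 47.8, 47.8 and 60.0 CPM with PBS. The asparaginase libraries were all higher at 8 weeks and overlapped PBS at 16 weeks.

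One call in 30 members is close to the background, since 5.41% of all genes were called for the mean effect and 2.55% were called higher. Por missed the threshold at a log2 fold change of 0.30 (SE 0.08, adjusted p = 0.0536), as did Klf10 at 0.66 (SE 0.21, adjusted p = 0.0943), Csnk1e at 0.23 (SE 0.07, adjusted p = 0.0708) and Per3 at 0.54 (SE 0.19, adjusted p = 0.127). The Rora call was kept in 2 of the 18 fits that left out 1 library, those without PBS replicate 1 or replicate 3 of 8 weeks, and missed the threshold when any of the other 16 was left out, at adjusted p of 0.054 to 0.173. It was also lost with no sex term, without the low-count filter, without the 3 libraries of mixed sex and without the 2 libraries of 8 weeks with squamous transcripts. The log2 fold change itself stayed between 0.28 and 0.37 when 1 library was left out. Markers of other cells moved in the same mean effect. Pancreatic acinar markers were higher in 12 of 12 at an unadjusted p under 0.05, with Try5 called. At that unadjusted p, 22.4% of all genes passed in either direction. They summed to 643 to 1851 CPM with asparaginase and 76.1 to 192 CPM with PBS at 2 weeks. At 8 weeks they summed to 9.71 to 219.5 CPM with asparaginase and 9.87 to 11.35 CPM with PBS, and at 16 weeks to 13.5 to 4689 CPM with asparaginase and 12.9 to 713 CPM with PBS. At the same unadjusted p, 6 of 7 erythroid markers were lower, with Alas2 called, and 1 was higher. Likewise, 6 of 8 lymphocyte markers were lower with 0 called, and 6 of 10 hepatocyte markers were lower with 2 called. Of 10 Kupffer cell markers, 4 were lower, with Vsig4 called, and 1 was higher, Marco, also called. Their part in the Rora value was not tested.

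In PBS livers, more members passed the threshold between 2 weeks and the adult ages than between the treatments. At both adult ages Bhlhe41 rose and Npas2, Cry1, Csnk1e and Timeless fell relative to 2 weeks. At 16 weeks against 2 weeks, 10 members rose and 5 fell, where 13.2% and 14.5% of all genes did. At 8 weeks against 2 weeks, 2 members rose and 8 fell, where 14.8% and 16.9% of all genes did. The shares of members called, 15 and 10 of 30, stood beside 27.8% and 31.7% of all genes called, so the count at 8 weeks is near the background. The libraries did not overlap for 13 members higher and 4 lower at 16 weeks, against 19.5% and 20.2% of all genes. At 8 weeks they did not overlap for 2 higher and 8 lower, against 16.4% and 18.6%, or 35% in either direction. The 2 comparisons share the 2-week PBS libraries, 2 of which held transcripts of both sexes.

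Bhlhe41 had the largest rise of the repressors. It stood at 0.355, 0.434 and 0.278 CPM at 2 weeks, 2.33, 4.60 and 1.62 CPM at 8 weeks and 2.91, 4.03 and 7.42 CPM at 16 weeks. The log2 fold change was 3.10 (SE 0.33) at 8 over 2 weeks and 3.94 (SE 0.33) at 16 over 2 weeks, with no overlap between 2 weeks and either adult age. Its exons overlap those of Gm43909 on the opposite strand by 1280 bases. Ciart averaged 5.88 ± 3.33 CPM at 2 weeks, 6.57 ± 6.61 CPM at 8 weeks and 25.3 ± 3.72 CPM at 16 weeks, and rose by 2.38 (SE 0.45) at 16 over 2 weeks. Dbp rose by 2.22 (SE 0.74, adjusted p = 0.0408), Tef by 1.04 (SE 0.24), Nr1d2 by 1.18 (SE 0.31), Usp2 by 1.28 (SE 0.30) and Alas1 by 1.72 (SE 0.33) on the log2 scale at 16 over 2 weeks. Wee1, Per2 and Cry2 rose by 0.87 (SE 0.29), 0.60 (SE 0.21) and 0.33 (SE 0.11). Nr1d1 rose at 8 over 2 weeks by 1.90 (SE 0.63, adjusted p = 0.0351) and missed the threshold at 16 over 2 weeks.

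Of the 3 activators, Npas2 fell in both comparisons with 2 weeks, Arntl at 16 weeks alone, and Clock in neither. Npas2 averaged 2.17 ± 1.85 CPM at 2 weeks, 0.310 ± 0.233 CPM at 8 weeks and 0.0927 ± 0.0498 CPM at 16 weeks, a log2 fold change of -3.09 (SE 0.64) at 8 over 2 weeks and -4.68 (SE 0.76) at 16 over 2 weeks. Arntl averaged 8.55 ± 7.52 CPM at 2 weeks, 2.86 ± 0.935 CPM at 8 weeks and 0.760 ± 0.172 CPM at 16 weeks, and its log2 fold change was -3.49 (SE 0.68, adjusted p = 0.00232) at 16 over 2 weeks and -1.61 (SE 0.61, adjusted p = 0.0604) at 8 over 2 weeks. PBS replicate 1 of 2 weeks, at 0.77 CPM, overlapped the 16-week libraries. Clock, the partner of both, did not pass the threshold in any comparison of ages. Cry1 fell by 1.58 (SE 0.32) at 8 over 2 weeks and by 1.29 (SE 0.31) at 16 over 2 weeks.

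Timeless fell by 1.43 (SE 0.19) at 8 over 2 weeks and by 1.28 (SE 0.19) at 16 over 2 weeks. Csnk1e fell by 0.84 (SE 0.12) at 8 over 2 weeks and by 0.59 (SE 0.12) at 16 over 2 weeks. Per1, Per2, Noct and Nampt fell at 8 over 2 weeks, by 1.07 (SE 0.20), 0.71 (SE 0.21), 0.45 (SE 0.12) and 0.55 (SE 0.19). The cell cycle list fell in 16 of 16 genes in both comparisons with 2 weeks, and its sum was 237 to 293 CPM at 2 weeks, 54.4 to 93.4 CPM at 8 weeks and 50.8 to 66.6 CPM at 16 weeks, and its part in the Timeless change was not tested. Of the called members, 6 were called in all 18 fits that left out 1 library at 16 over 2 weeks (Alas1, Arntl, Bhlhe41, Ciart, Npas2 and Timeless) and 5 at 8 over 2 weeks (Bhlhe41, Csnk1e, Npas2, Per1 and Timeless). The count at 16 over 2 weeks was 7 without PBS replicate 3 and 9 without PBS replicate 2 of 2 weeks, and 8 without PBS replicate 3 of 16 weeks. At that age Wee1 was called in 10 of the 18 fits, Cry2 in 9, Dbp in 6 and Per2 in 5.

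**Figure D4:**
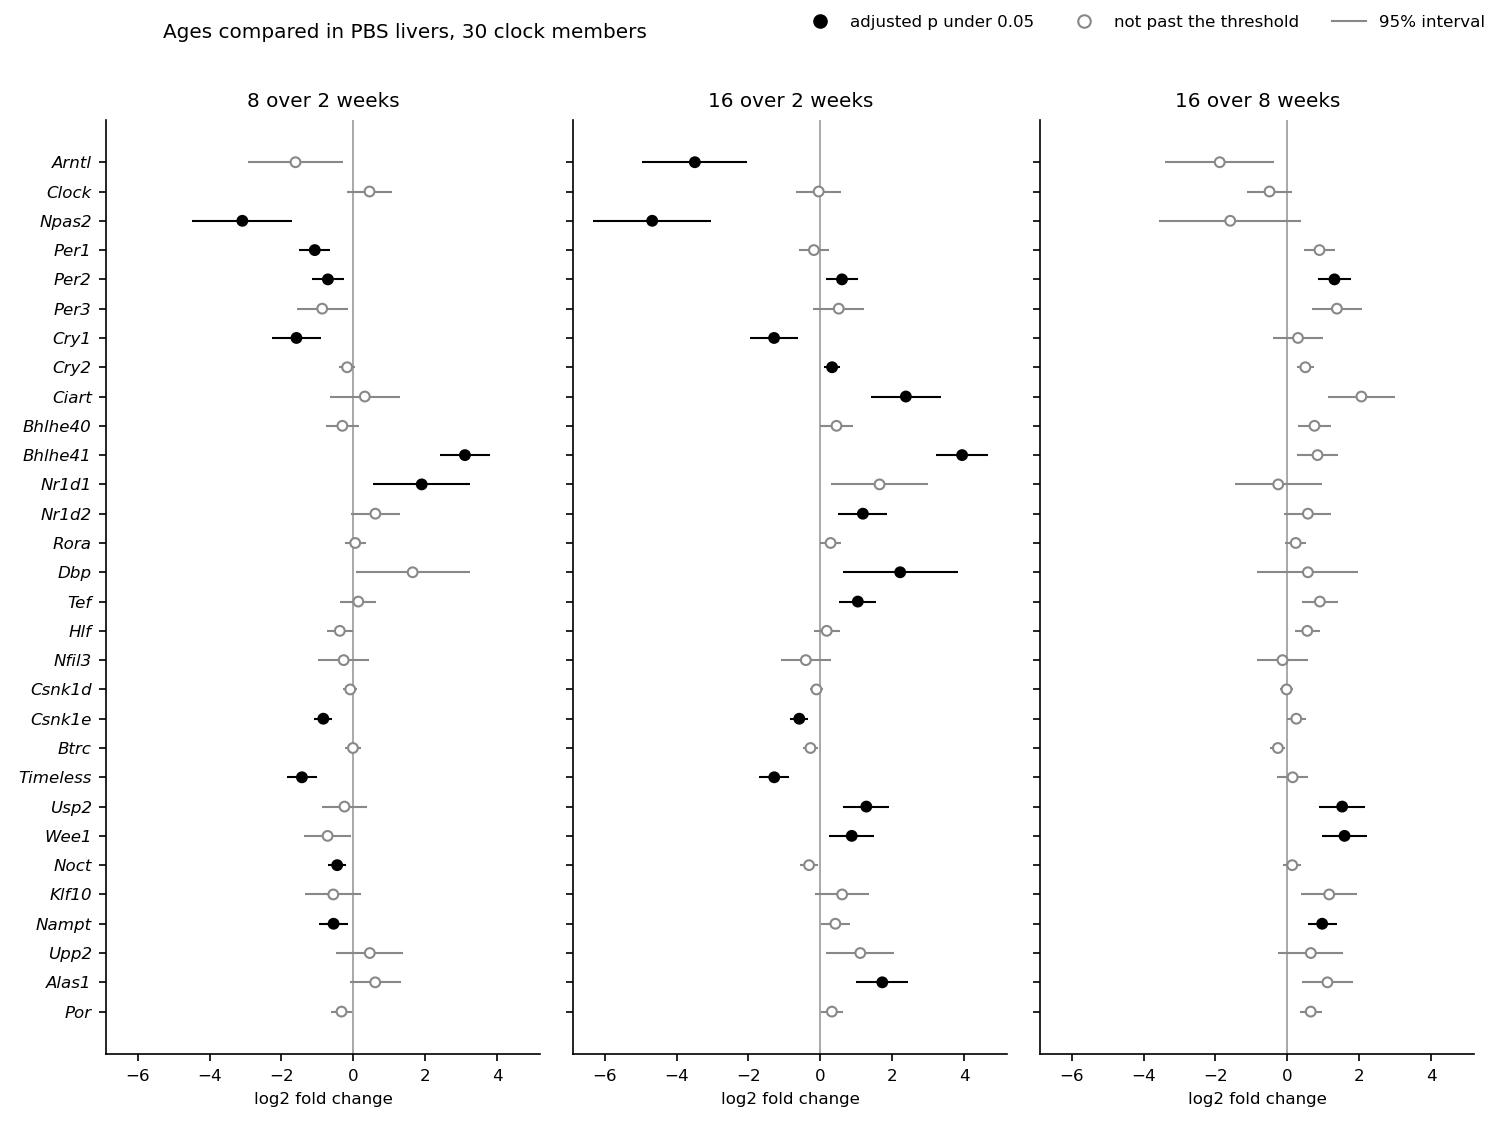
Log2 fold change between ages in PBS livers for the 30 members (x axis), with 95% intervals; filled points passed an adjusted p under 0.05. Bhlhe41 lies at 3.10 and 3.94 in the comparisons with 2 weeks, Npas2 at -3.09 and -4.68, and 4 members are filled at 16 over 8 weeks.

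Between the adult ages, 4 members rose at 16 over 8 weeks, where 0.179% of all genes rose and 0.413% were called. Per2 stood at 49.9, 48.9 and 39.4 CPM at 16 weeks, against 12.6, 22.6 and 16.9 CPM at 8 weeks, a log2 fold change of 1.31 (SE 0.21, adjusted p = 0.0248). Wee1 averaged 9.62 ± 0.639 CPM at 16 weeks and 3.18 ± 0.705 CPM at 8 weeks, a log2 fold change of 1.59 (SE 0.29, adjusted p = 0.0436). Usp2 and Nampt rose by 1.52 (SE 0.29, adjusted p = 0.0483) and 0.97 (SE 0.19, adjusted p = 0.0482). Ciart stood at 2.06 (SE 0.44, adjusted p = 0.064), Por at 0.65 (SE 0.14, adjusted p = 0.0664), Per1 at 0.89 (SE 0.20, adjusted p = 0.071) and Per3 at 1.38 (SE 0.33, adjusted p = 0.0846), short of the threshold.

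The libraries of 16 and 8 weeks did not overlap for 16 members that were higher and 2 that were lower (Arntl and Btrc), against 8.09% and 8.18% of all genes tested. The 8-week PBS libraries serve both here and in the comparison with asparaginase at 8 weeks, so the 2 are not independent. The called count depended on the library set: it was 0 without PBS replicate 1 or replicate 3 of 16 weeks or asparaginase replicate 2 of 2 weeks, 8 without PBS replicate 1 of 2 weeks, and 1 to 5 without any other library. Pancreatic acinar markers moved in the same comparison: 12 of 12 were higher at an unadjusted p under 0.05 with 0 called. They summed to 12.9, 638 and 713 CPM at 16 weeks, against 11.35, 9.87 and 9.89 CPM at 8 weeks. Their part in the clock values was not tested. The share of all genes at that unadjusted p is not given for this comparison, so the marker count has no background beside it. When 1 library was left out, Per2 was called in 12 of the 18 fits, Wee1 in 7, Usp2 in 4 and Nampt in 2.

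Between mice that shared age and treatment, the phase relation of the loop was examined by removing the group mean of log2 CPM from each of 18 libraries. In all, 4 relations with Arntl were computed, each with an exact permutation of libraries within groups (46656 arrangements, two-sided). Ciart had r = -0.592 (p = 0.0123, adjusted p = 0.0492) and rho = -0.579 (p = 0.0542, adjusted p = 0.216). Nr1d1 had r = -0.773 (adjusted p = 0.14) and rho = -0.406 (adjusted p = 0.216). Dbp had r = -0.746 (adjusted p = 0.14) and rho = -0.451 (adjusted p = 0.216), and Per3 had r = -0.647 (adjusted p = 0.14) and rho = -0.445 (adjusted p = 0.216). Leaving out the 2 libraries farthest from the median of the Arntl deviations, PBS replicates 1 and 3 of 2 weeks, gave r = -0.216 for Nr1d1, -0.278 for Dbp and -0.22 for Per3, so these relations rest on those 2 mice. Ciart kept r = -0.508 (exact permutation p = 0.0764), which no longer passes the threshold. Among the adult libraries alone, r was -0.21 for Dbp, 0.007 for Nr1d1, -0.12 for Per3 and -0.63 for Ciart.

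**Figure D5:**
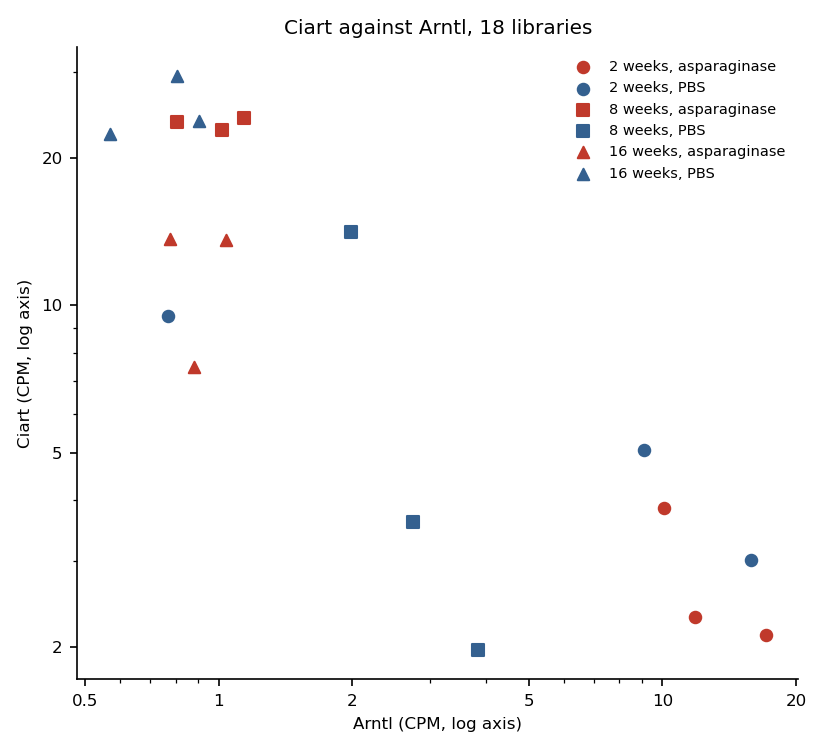
Ciart against Arntl in TMM-scaled CPM (both axes logarithmic), with a point for each of the 18 libraries, colour for treatment and symbol for age. Arntl lies at 9.09 to 17.1 CPM in 5 of the 6 libraries of 2 weeks and at 0.77 CPM in the other, PBS replicate 1, where Ciart is 9.54 CPM.

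Genes near the clock but outside the 30 were taken from lists written by hand, and their counts in the mean effect stand beside 5.41% of all genes called. Of 30 further clock regulators tested, 0 passed at any single age, and for the mean effect Csnk2a2, a catalytic subunit of casein kinase 2, rose by 0.36 (SE 0.07) and Fbxl21, an F-box protein for cryptochromes, fell by 0.52 (SE 0.12) on the log2 scale. Of 20 rhythmic liver transcripts, Tfrc, the transferrin receptor, fell at 16 weeks (log2 -1.69, SE 0.27, adjusted p = 0.0213) and in the mean effect (log2 -0.98, SE 0.15). In the mean effect the lipase Pnpla2 rose by 0.50 (SE 0.09) and Leo1, a subunit of the PAF1 complex, fell by 0.50 (SE 0.13). None of the 8 detoxification genes that depend on PAR bZIP factors passed for asparaginase, 0 by edgeR at each age, with 1 lower at an unadjusted p under 0.05 at each age.

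Cues that can set or mask the liver clock were also listed. Of 12 feeding and fasting genes, Cpt1a and Igfbp1 rose in the mean effect by 0.48 (SE 0.11) and 0.98 (SE 0.24), and Srebf1 and Acly fell by 0.82 (SE 0.14) and 0.68 (SE 0.16). Of 8 glucocorticoid-responsive genes Sgk1 rose by 0.87 (SE 0.16), and of 8 temperature-responsive genes Hsp90aa1 fell by 0.70 (SE 0.14), both on the log2 scale in the mean effect. Of 10 amino acid response genes, 4, 4 and 5 rose at 2, 8 and 16 weeks and 7 in the mean effect. The part of these genes in the clock values was not tested.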

How the data were processed

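Polyadenylated liver RNA was measured in 18 libraries. The values are whole-number read counts per gene that the authors deposited in 1 table. The submitters' processing notes list the tools TopHat, TopHat2 2.0.9 and DESeq2 and the builds mm10 and GRCm38, without their roles. Neither the read counter nor its use of strand is given in the sources used here, and 14 of the 30 members overlap exons of a gene on the opposite strand. Gene identifiers were matched to GENCODE M21 (35449 of 37315).

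Genes were filtered with edgeR's filterByExpr (minimum count 10, total 15), which left 16213, and scaled by TMM. An edgeR 4.0.16 quasi-likelihood model (R 4.3.3) covered the 18 libraries with a term per group and labelled sex within each age, coded 0.5 and -0.5. It had 9 residual degrees of freedom. P-values were adjusted by Benjamini-Hochberg over all genes of a comparison, with a threshold of 0.05. Every adjusted p of a gene comes from this test unless another tool is named. SE is the absolute log2 fold change over the square root of F. CPM are on TMM-scaled library sizes, and log2 CPM uses a pseudocount of 0.1. Members found higher or lower in all libraries are counted on CPM, without the sex term. On simulated counts of 15939 genes for the 8-week comparison, 75% of genes changed 2-fold and 96% of those changed 4-fold were recovered. The changed genes were drawn only from those with higher expected counts, so these shares do not cover low-count members such as Npas2. Simulated counts were drawn independently for each gene, without differences that many genes of a library share, such as squamous transcripts or clock phase. The shares therefore do not apply to the clock members in these libraries.

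The members, gene lists and tests were chosen with earlier results of these data known. Named were all 30 members by role, with values in every library for Rora and 10 set genes, plus up to 4 called genes per other list and Asns. Cry2, Bhlhe41, Usp2, Wee1, Por and other members given as means were picked after their values were seen, as was the sum of 8 cholesterol synthesis genes. The study states 3 mice a group, and p-values measure the spread between these libraries. Alternatives were other scaling, filters, tools (DESeq2 1.42.0, limma 3.58.1), sex terms and sets of libraries.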

Additional observations from a re-analysis of the deposited data

Results flagged for a closer look

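For 5 members the effect of asparaginase was opposite at the adult ages in every library: all 3 asparaginase libraries were above PBS at 8 weeks and all 3 were below PBS at 16 weeks. These 5 were picked by that pattern on CPM, without the sex term. The share of all genes that show it was not counted, so their number cannot be set against a background. The effect at 16 weeks minus the effect at 8 weeks, on the log2 scale, was -3.00 for Ciart, -1.90 for Usp2, -1.06 for Per2, -0.93 for Nampt and -0.66 for Cry2. The test of this difference in edgeR gave adjusted p of 0.306 for Ciart, 0.315 for Usp2, 0.323 for Cry2 and 0.377 for both Per2 and Nampt, so none of the 5 passed. The PBS libraries also differed between these ages, and 3 of the 5 (Per2, Usp2 and Nampt) rose in PBS livers at 16 over 8 weeks.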

How the results depend on the processing

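Of 2303 alternative values for 81 single-gene results, 2044 kept their direction and side of the threshold, 69 passed it newly, 180 no longer passed and 10 reversed. The cause of these changes was not tested. Without a low-count filter and by DESeq2, more genes were called over the whole table too. At 8 weeks these were 445 and 659, against 59 in the main analysis. For the joint test they were 28 and 155, against 0, and for 16 over 8 weeks 171 and 550, against 67. Members called at 8 weeks were 7 without the filter and 8 by DESeq2, with 0 in the main analysis. DESeq2 also called 1 member at 2 weeks and 1 at 16 weeks, again with 0 in the main analysis. For the mean effect the count was 0 at an adjusted p under 0.01, without the filter, without the 3 libraries of mixed sex and without the 2 with squamous transcripts, 2 by limma-voom and 4 by DESeq2. For the joint test it was 2 without the filter and 6 by DESeq2. At an adjusted p under 0.01 it was 6 for 8 over 2 weeks and 0 for 16 over 8 weeks. For 16 over 8 weeks it was also 2 with RLE size factors and without Mup genes, 7 without the filter, 13 by DESeq2, and 1 when sex was fitted in adults alone or the mixed-sex libraries were left out. Leaving out 1 library at a time gave counts of 0 to 1 at 2 weeks, 0 to 4 at 8 weeks, 0 to 0 at 16 weeks, 0 to 2 for the mean effect, 0 to 1 for the joint test, 7 to 13 for 8 over 2 weeks, 7 to 17 for 16 over 2 weeks and 0 to 8 for 16 over 8 weeks.

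The 2-week log2 fold change of Dbp reversed to -0.44 with limma-voom, -1.31 with no sex term, -1.14 with a common sex term and -1.30 when sex was fitted in adults alone, and ranged from -1.44 to 1.76 over fits leaving out 1 library. That of Arntl reversed to -0.23 without the mixed-sex libraries and ranged from -0.13 to 1.09. The relation of Ciart with Arntl was -0.583 on CPM of total counts and -0.508 without its 2 farthest libraries, and neither passed the threshold. On CPM of total counts, r was -0.608 for Dbp, -0.653 for Nr1d1 and -0.351 for Per3, and rho was -0.172, -0.067 and -0.04. Without the 2 farthest libraries, r on that scale turned positive for these genes, at 0.038, 0.069 and 0.275. Among the adult libraries it was 0.414, 0.495 and 0.517. For Ciart it stayed negative on that scale, at -0.419 without the 2 libraries and -0.45 among adults. No paired analysis was possible because the replicate numbers only name libraries, in deposition order, and no label ties mice of different groups. The depth of 24690871 counts or more limits Npas2, with 1 to 5 counts a library at 16 weeks.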
